A study of Mus musculus with 8 samples.

Results

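The genes described here are 5 digestive enzymes of pancreatic acinar cells, Cpa1, Cpb1, Ctrb1, Pnlip and Cel, and 5 genes of the regenerating (Reg) family, Reg1, Reg2, Reg3a, Reg3b and Reg3g, followed in isolated mouse islets. They were taken by gene symbol, 10 of the 48709 genes in the deposited tables, and all 10 symbols were found. RNA was sequenced from islets labelled β-Tead1-KO and from Flox/Flox islets (Flox), both from C57BL/6 mice aged 1 yr. The genotype name places the loss of Tead1, a DNA-binding partner of YAP and TAZ, in the insulin-producing β-cells. The promoter that drove the deletion is not given in the sources used here, nor is whether Flox mice carried a Cre transgene. Each genotype had 2 libraries and each library was run on 2 lanes, which were summed. The series' design text speaks of 3 pooled samples, whereas the sample descriptions carry 1 or 2 animal-like numbers per library, so how many animals each pool held is unclear. Per the labels' protocols, collagenase digestion was followed by a density gradient and by hand picking of the islets for purity.

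Acinar cells fill most of the exocrine pancreas and secrete proteases, lipases and amylases, the proteases as inactive precursors. Isolated islets commonly carry some acinar tissue with them, so enzyme transcripts in islet RNA are usually read as carry-over. Reg genes encode small secreted C-type lectin-like proteins. Acinar cells make several of them, they are known to be induced in the pancreas by injury and inflammation, and cytokines that act through STAT3 are known inducers of the Reg3 genes.

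Exon reads totalled 14069569 to 26387280 per library. Tead1 had 137 and 163 CPM (exon reads scaled by TMM factors to a common library total) in the β-Tead1-KO libraries, against 101 and 124 CPM in the Flox libraries. Its log2 fold change, β-Tead1-KO over Flox, was 0.41 ± 0.19 (SE, n = 2 each), with an adjusted p of 0.347 in edgeR. The label β-Tead1-KO thus did not go with less Tead1 RNA. Reads summed over a gene do not resolve a deleted exon, so the labels were taken as given. The 2 insulin genes held 17.0% and 15.2% of exon reads in the β-Tead1-KO libraries and 18.3% and 20.4% in the Flox libraries. Nothing says that the libraries of a genotype came from separate animals, so p-values measure the spread between these libraries. Libraries labelled 1 and 2 differed in other ways too: intron reads were 29.4% and 38.0% of all gene reads in β-Tead1-KO libraries 1 and 2, and 28.8% and 43.1% in Flox libraries 1 and 2.

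On the mm10 build, the enzyme genes lie apart from each other. Cpa1 (ENSMUSG00000054446), carboxypeptidase A1, spans chr6:30639218-30645363 on the plus strand. Cpb1 (ENSMUSG00000011463), carboxypeptidase B1, spans chr3:20248264-20275733 on the minus strand. Ctrb1 (ENSMUSG00000031957), chymotrypsinogen B1, spans chr8:111686519-111691010 on the minus strand. The lipase genes are Pnlip (ENSMUSG00000046008), pancreatic lipase, at chr19:58670365-58681786 on the plus strand, and Cel (ENSMUSG00000026818), bile-salt-dependent carboxyl ester lipase, at chr2:28555795-28563403 on the minus strand. The 5 Reg genes share a single stretch of chromosome 6 of 98.2 kb, together with Reg3d. Their order is Reg3b (ENSMUSG00000071356, chr6:78370657-78373466, plus), Reg3d, Reg3a (ENSMUSG00000079516, chr6:78380709-78383827, plus), Reg2 (ENSMUSG00000023140, chr6:78395623-78408106, plus), Reg1 (ENSMUSG00000059654, chr6:78422711-78428667, plus) and Reg3g (ENSMUSG00000030017, chr6:78466269-78468872, minus). Every exon read counted for a member with reads was a unique read, so reads shared between the Reg copies do not enter these values.

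Promoter windows of the members, 250 bases before to 50 bases after the RefSeq start, were read from RefSeq (GRCm38.p6), and all 10 members matched. For Reg1, Reg2 and Reg3b that start lies inside the gene span given above, not at its edge. Acinar genes are classically bound at an E-box (CANNTG) paired with a TC-box (TTTCCC) by the PTF1 complex, and STAT factors bind TTCNNNGAA. Searched on both strands, the E-box was in 72.3% of 32851 promoter windows, the TC-box in 25.2%, both in 18%, and TTCNNNGAA in 8.3%. An E-box and a TC-box stood together in 6 of the 10 member windows, those of Cpa1, Ctrb1, Cel, Reg1, Reg3b and Reg3g. TTCNNNGAA occurred in 1 member window, that of Reg3b, as TTCTTGGAA. A match is a description of these letters only. Ctrb1 (chr8:111690961-111691260, minus), Cel (chr2:28563354-28563653, minus) and Reg1 (chr6:78425733-78426032, plus) are shown as an enzyme with a single pair, an enzyme with several E-boxes and the Reg gene with most reads. Capitals in these windows mark E-boxes and TC-boxes. Reg3b (chr6:78370635-78370934, plus) and Reg3g (chr6:78468825-78469124, minus) are shown because both were read in the β-Tead1-KO libraries and neither in the Flox libraries. Capitals there mark the longest run of letters that the pair shares.
Ctrb1: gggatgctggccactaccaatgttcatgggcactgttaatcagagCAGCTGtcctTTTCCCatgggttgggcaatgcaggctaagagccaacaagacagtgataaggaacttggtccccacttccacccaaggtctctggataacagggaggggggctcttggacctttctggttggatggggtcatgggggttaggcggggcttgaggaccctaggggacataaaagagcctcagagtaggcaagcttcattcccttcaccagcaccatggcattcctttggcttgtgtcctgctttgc
Cel: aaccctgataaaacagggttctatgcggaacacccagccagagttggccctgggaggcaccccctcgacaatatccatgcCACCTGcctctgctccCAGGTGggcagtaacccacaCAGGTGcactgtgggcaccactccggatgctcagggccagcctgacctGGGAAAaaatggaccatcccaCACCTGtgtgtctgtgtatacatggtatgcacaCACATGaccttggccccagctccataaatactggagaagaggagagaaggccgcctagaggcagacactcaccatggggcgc
Reg1: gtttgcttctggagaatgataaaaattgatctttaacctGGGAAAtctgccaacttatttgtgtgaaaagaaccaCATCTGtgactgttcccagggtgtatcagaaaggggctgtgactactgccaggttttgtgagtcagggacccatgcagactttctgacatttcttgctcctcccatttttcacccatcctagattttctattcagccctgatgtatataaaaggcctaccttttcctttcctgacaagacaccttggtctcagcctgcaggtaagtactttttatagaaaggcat
Reg3b: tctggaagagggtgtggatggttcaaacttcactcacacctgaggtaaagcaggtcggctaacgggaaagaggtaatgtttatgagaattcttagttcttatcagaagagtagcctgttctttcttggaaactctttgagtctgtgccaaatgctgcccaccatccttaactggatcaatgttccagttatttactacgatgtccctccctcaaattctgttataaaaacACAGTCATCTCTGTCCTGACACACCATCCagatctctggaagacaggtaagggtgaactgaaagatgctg
Reg3g: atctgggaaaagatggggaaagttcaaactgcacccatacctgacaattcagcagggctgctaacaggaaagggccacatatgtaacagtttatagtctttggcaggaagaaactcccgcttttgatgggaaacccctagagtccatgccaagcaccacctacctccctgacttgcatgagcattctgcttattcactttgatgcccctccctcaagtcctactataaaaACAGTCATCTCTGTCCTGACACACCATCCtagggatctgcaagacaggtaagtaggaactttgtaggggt

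The Reg3b and Reg3g windows were 68.6% identical when aligned, with a shared run of 29 bases that spans the start. The 10 pairs among Reg windows ranged from 46% to 68.6% identity with a median of 50.7%. The 10 pairs among enzyme windows ranged from 43.6% to 50% with a median of 44.8%, and their longest shared runs were 7 to 9 bases. Reg3b and Reg3g lie at opposite ends of the Reg cluster and on opposite strands.

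The enzymes differed mainly between libraries, not between genotypes. Cpa1, which trims aromatic and aliphatic residues from the ends of peptides, had 102 and 788 CPM in β-Tead1-KO libraries 1 and 2, against 197 and 671 CPM in Flox libraries 1 and 2. Cpb1, which trims basic residues, had 97.1 and 823 CPM in the β-Tead1-KO libraries, against 184 and 561 CPM in the Flox libraries. In both genes each library 2 was high, each library 1 was low, and the genotypes overlapped. Ctrb1, a protease precursor, had 133 and 665 CPM in the β-Tead1-KO libraries, against 207 and 892 CPM in the Flox libraries. Pnlip, the main lipase of dietary fat digestion, had 130.3 and 1153 CPM in the β-Tead1-KO libraries, against 235 and 850.4 CPM in the Flox libraries. Cel had 96.9 and 853 CPM in the β-Tead1-KO libraries, against 214 and 695 CPM in the Flox libraries. These 3 genes followed the same pattern, low in both libraries 1 and high in both libraries 2.

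0 of the 8 members that passed the filter on low counts, 5 enzymes and 3 Reg genes, passed edgeR's quasi-likelihood test, in which 504 of 15014 genes, 3.36%, had an adjusted p below 0.05 (1.76% higher and 1.6% lower in β-Tead1-KO). At an unadjusted p below 0.05 there was 1 member, Reg3b, against 16.8% of all genes tested. DESeq2, which called 7.41% of genes, called 0 members, and limma-voom, which called 2.62%, called 0. Log2 fold changes of the enzymes, β-Tead1-KO over Flox, were 0.04 ± 0.96 for Cpa1, 0.31 ± 0.97 for Cpb1, -0.46 ± 0.89 for Ctrb1, 0.24 ± 1.01 for Pnlip and 0.06 ± 0.99 for Cel (SE, n = 2 each). The edgeR adjusted p-values lay between 0.850 for Ctrb1 and 0.990 for Cpa1. With standard errors near 1 on the log2 scale, a difference of the size of 1 SE could not be detected at this spread.

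The 5 enzymes together held 0.0558% of exon reads in β-Tead1-KO library 1, with an exact 95% binomial interval of 0.0548% to 0.0568%, and 0.432% (0.430% to 0.435%) in library 2. In Flox libraries 1 and 2 their share was 0.102% (0.100% to 0.103%) and 0.370% (0.367% to 0.373%). The intervals cover counting error only, and in bulk islet RNA fewer cells of a type and less RNA per cell cannot be told apart. Library 2 exceeded library 1 by 7.66-fold in β-Tead1-KO and by 3.54-fold in Flox in summed enzyme CPM. The composition of the sum varied less than its size. Cpa1 was 18.2% and 18.4% of the enzyme reads in the β-Tead1-KO libraries and 19.0% and 18.3% in the Flox libraries. Ctrb1 varied most, at 23.8% and 15.5% in the β-Tead1-KO libraries and 20.0% and 24.3% in the Flox libraries. Few enzyme reads were intronic: 27 and 75 intron reads in the β-Tead1-KO libraries and 20 and 329 in the Flox libraries, or 0.216% and 0.0657% of their exon and intron reads in β-Tead1-KO and 0.0895% and 0.628% in Flox.

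Per kb of exon, mean levels over the 4 libraries were 540 CPM for Ctrb1, 399 for Pnlip, 251 for Cpa1, 221 for Cel and 127 for Cpb1. Reg1 followed at 57.7 CPM per kb, and Reg2 at 1.31. Reg3b was at 0.254, Reg3a at 0.0777 and Reg3g at 0.0549 CPM per kb, an order that rests on few reads. Over the 4 libraries, the range of each enzyme overlapped that of its neighbour in this order. Within each library, however, Pnlip was above Cpa1, Cpa1 above Cel, Cel above Cpb1 and Cpb1 above Reg1; Ctrb1 was highest in every library other than β-Tead1-KO library 2, where Pnlip was.

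**Figure D1:**
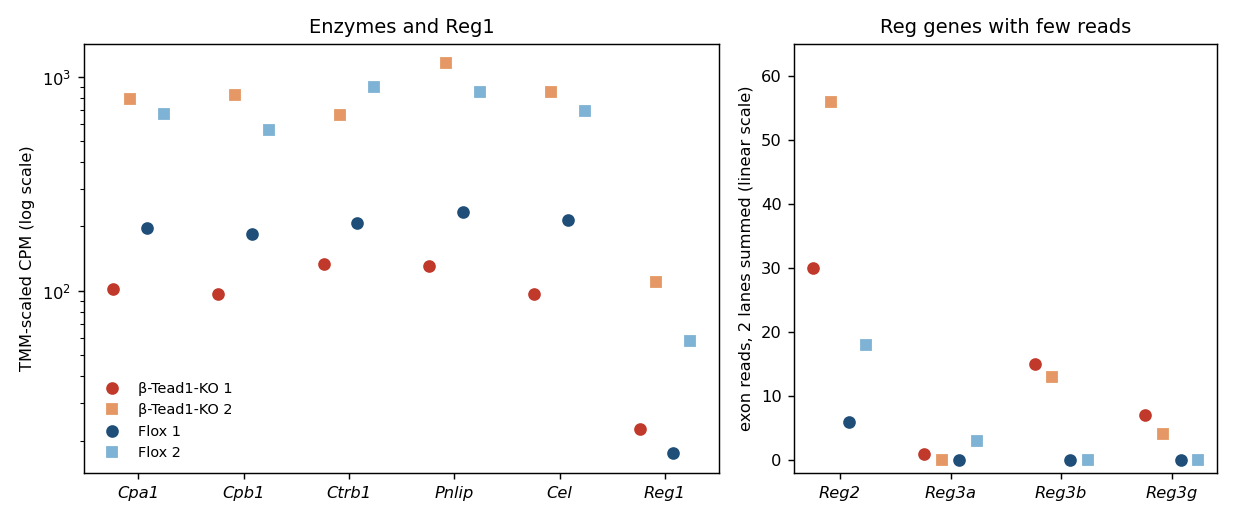
Levels of the members in each library, β-Tead1-KO libraries left of Flox libraries. The left panel shows TMM-scaled CPM on a log scale for the enzymes and Reg1, with both libraries 2 above both libraries 1; the right panel shows exon reads for the scarce Reg genes, with 15 and 13 Reg3b reads in the β-Tead1-KO libraries and 0 in both Flox libraries.

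Reg1, the most abundant Reg gene and one first known from regenerating islets, had 504 and 2939 exon reads in the β-Tead1-KO libraries, against 375 and 825 in the Flox libraries. That was 22.6 and 110.3 CPM in the β-Tead1-KO libraries, against 17.4 and 58.2 CPM in the Flox libraries. Reg1 shared the library pattern of the enzymes and its genotypes overlapped. Means were 66.4 ± 62.0 CPM in β-Tead1-KO and 37.8 ± 28.8 CPM in Flox (SD, n = 2 each), and the log2 fold change was 0.82 ± 0.82 (SE), with an adjusted p of 0.689 in edgeR. Without β-Tead1-KO library 2 the Reg1 log2 fold change was -0.72. Junction reads were 87.3% and 84.7% of Reg1 exon reads in the β-Tead1-KO libraries and 82.4% and 86.7% in the Flox libraries, a measure of spliced RNA.

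Reg2, a close relative of Reg1, had 30 and 56 reads in the β-Tead1-KO libraries, against 6 and 18 in the Flox libraries. Levels were 1.34 and 2.10 CPM in the β-Tead1-KO libraries, against 0.279 and 1.27 CPM in the Flox libraries. The genotypes did not overlap, as was so for 23.9% of all genes tested in the direction of higher β-Tead1-KO values, but β-Tead1-KO library 1 lay only just above Flox library 2. The log2 fold change was 1.26 ± 0.71 (SE, n = 2 each; edgeR adjusted p = 0.459).

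Reg3b, the secreted lectin also called pancreatitis-associated protein, had 15 and 13 reads in the β-Tead1-KO libraries, against 0 and 0 in the Flox libraries. The reads came from both lanes of each β-Tead1-KO library, 7 and 8 in library 1 and 6 and 7 in library 2. Over the group, 28 reads against a limit of 3 reads for a count of 0 gave a fold of at least 6.81, β-Tead1-KO over Flox. That bound takes the 28 reads as exact and leaves out the spread between libraries. The edgeR adjusted p was 0.163 and the unadjusted p was 0.0155. Reg3b passed the filter through its β-Tead1-KO reads alone.

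Reg3g, an antimicrobial lectin best known from the gut, had 7 and 4 reads in the β-Tead1-KO libraries, against 0 and 0 in the Flox libraries, and did not pass the filter. Its 11 reads over the group against the limit of 3 gave a fold of at least 2.67, a bound that takes the 11 reads as exact. Reg3a, a further member of the Reg3 group, had 1 and 0 reads in the β-Tead1-KO libraries and 0 and 3 in the Flox libraries, and no difference was detectable at this depth. A count of 0 allows up to 0.134 and 0.113 CPM in the β-Tead1-KO libraries, and up to 0.139 and 0.212 CPM in the Flox libraries. Reg3b exceeded these limits in both β-Tead1-KO libraries, at 0.672 and 0.488 CPM. Reg3g, at 0.314 and 0.150 CPM, did so in β-Tead1-KO library 1 only, since library 2 lay below the 0.212 CPM of Flox library 2. Reg3b did not follow the 7.66-fold step of the enzymes between β-Tead1-KO libraries 1 and 2. Of the Reg genes outside the 10 members, Reg3d had 9 and 63 reads in the β-Tead1-KO libraries and 10 and 25 in the Flox libraries, or a log2 fold change of 0.42 ± 0.95 (SE, n = 2 each), with an adjusted p of 0.877 in edgeR. Reg4 had 0 and 0 reads in the β-Tead1-KO libraries and 1 and 1 in the Flox libraries.

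Set against the enzymes of the same library, Reg reads were more numerous in both β-Tead1-KO libraries. The 5 Reg genes gave 557 and 3012 reads in the β-Tead1-KO libraries and 381 and 846 in the Flox libraries. Per 100 enzyme reads that was 4.46 (exact 95% interval 4.09 to 4.86) and 2.64 (2.54 to 2.74) in the β-Tead1-KO libraries, against 1.71 (1.54 to 1.89) and 1.63 (1.52 to 1.74) in the Flox libraries. The Flox libraries agreed within their counting intervals, although their enzyme levels differed by 3.54-fold. Both β-Tead1-KO libraries lay above both Flox libraries, and the β-Tead1-KO libraries differed from each other by more than counting error. The ratio of geometric means was 2.06 and ran from 1.58 to 2.68 when each library in turn was left out, an alternative added after the data were seen. It has no test, being a value over genes that were picked with earlier results known. Reg1 alone gave 4.04 (3.69 to 4.42) and 2.58 (2.48 to 2.67) reads per 100 enzyme reads in the β-Tead1-KO libraries, against 1.68 (1.51 to 1.86) and 1.59 (1.48 to 1.70) in the Flox libraries, since it made up 90.5% and 97.6% of Reg reads in β-Tead1-KO and 98.4% and 97.5% in Flox.

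With the summed enzyme level of each library as a covariate, a fit added after the data were seen, edgeR gave Reg1 a log2 fold change of 0.92 ± 0.18 (SE, n = 2 each; adjusted p = 0.0410). Over the 18 alternatives the adjusted p of Reg1 ran from 0.041 to 0.925. The covariate fit was the only one of them in which a member was called. It called 777 of 15014 genes, against 504 in the main fit, and leaves 1 residual degree of freedom. In the same fit Reg2 had 1.40 ± 0.60 (adjusted p = 0.288).

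**Figure D2:**
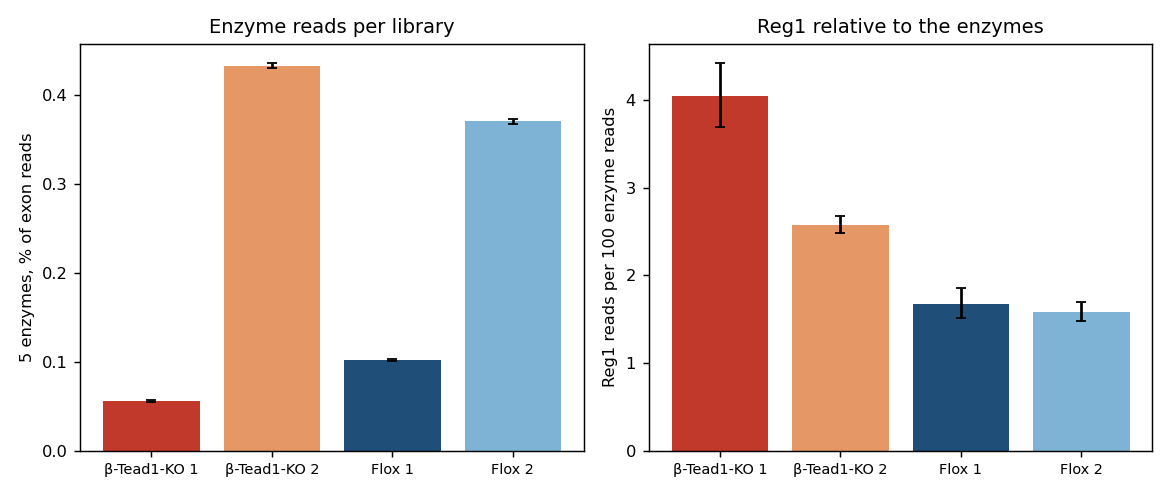
Enzyme reads as a percentage of exon reads (left) and Reg1 reads per 100 enzyme reads (right) in each library, β-Tead1-KO libraries left of Flox libraries, with bars showing exact 95% binomial intervals. Enzyme reads overlap between genotypes, whereas Reg1 reads per 100 enzyme reads are 4.04 and 2.58 in β-Tead1-KO and 1.68 and 1.59 in Flox.

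The wider acinar list showed how far such a ratio moves among genes of 1 cell type. Of 35 further acinar genes 33 were tested, and edgeR called 0 and had 0 at an unadjusted p below 0.05; the median log2 fold change was 0.04, against -0.01 over all genes tested. They ranged from -1.11 to 0.70, with 18 above zero and 15 below. All 38 tested acinar genes, the member enzymes included, were higher in library 2 than in library 1 in both genotypes, by 2.08- to 13.0-fold in β-Tead1-KO and 1.47- to 7.99-fold in Flox. The summed level of the whole list of 40 genes was 2063 and 17669 CPM in the β-Tead1-KO libraries and 4293 and 14862 CPM in the Flox libraries, with Cela3a at 0 in all 4. Amy2a2, Amy2a3, Amy2a4 and Amy2a5, the pancreatic amylase copies and the highest of the list, had close to 0% unique reads, so the copies cannot be told apart and are uncertain one by one. Cela2a, an elastase, had 95.5 and 871 CPM in the β-Tead1-KO libraries and 231 and 1011 CPM in the Flox libraries.

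**Figure D3:**
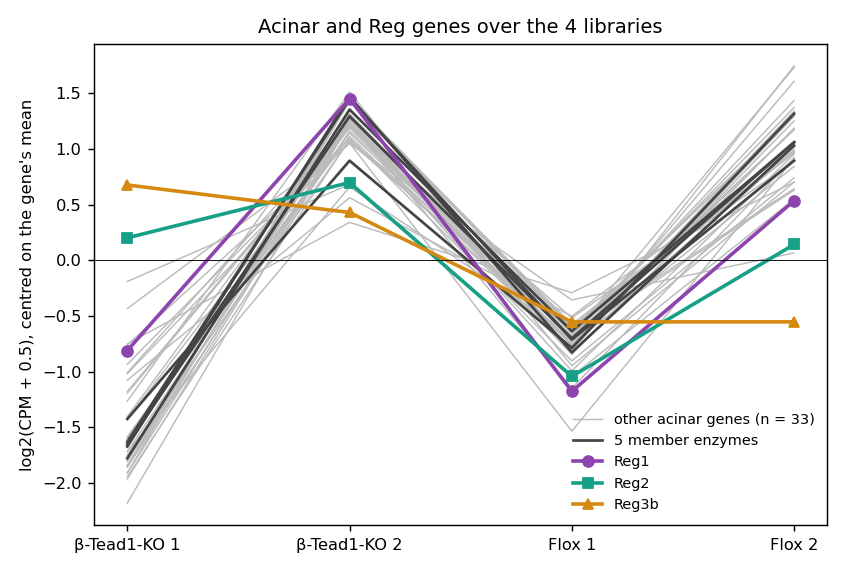
Log2(CPM + 0.5) of each gene, centred on its own mean, in β-Tead1-KO libraries 1 and 2 and then Flox libraries 1 and 2; thin grey lines are other acinar genes, dark lines the 5 member enzymes, and marked lines Reg1, Reg2 and Reg3b. The acinar lines are low in both libraries 1 and high in both libraries 2, and Reg1 follows them with a smaller dip in β-Tead1-KO library 1.

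Relative to the 5 enzymes, 7 of the 38 acinar genes had a higher ratio in both β-Tead1-KO libraries than in both Flox libraries, and 9 a lower one. In CPM, not divided by the enzymes, 23.9% of all genes tested were higher without overlap and 24.2% lower. The share of all genes for the ratio itself was not counted. The median fold of the acinar genes was 0.957. Their folds ranged from 0.551, for the phospholipase Pla2g1b, to 2.22, for the trypsin inhibitor Spink1. Each enzyme was set against the other 4. Reg1 at 1.98-fold ranked below Spink1 and Cckar, the cholecystokinin receptor, which were named after their values were seen and whose genotypes overlapped. Reg2 at 3.56-fold ranked first of 41 genes, with 0.240 and 0.0491 reads per 100 enzyme reads in the β-Tead1-KO libraries, against 0.0269 and 0.0346 in the Flox libraries. Among acinar genes without overlap, named after their values were seen, Pnliprp1 was at 1.49-fold and Try5 at 1.48-fold. The rank of Reg2 rests on few reads, 27.5 per library on average, and on β-Tead1-KO library 1. Without that library its fold was 1.61, and without β-Tead1-KO library 2 it was 7.89, an alternative added after the data were seen.

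**Figure D4:**
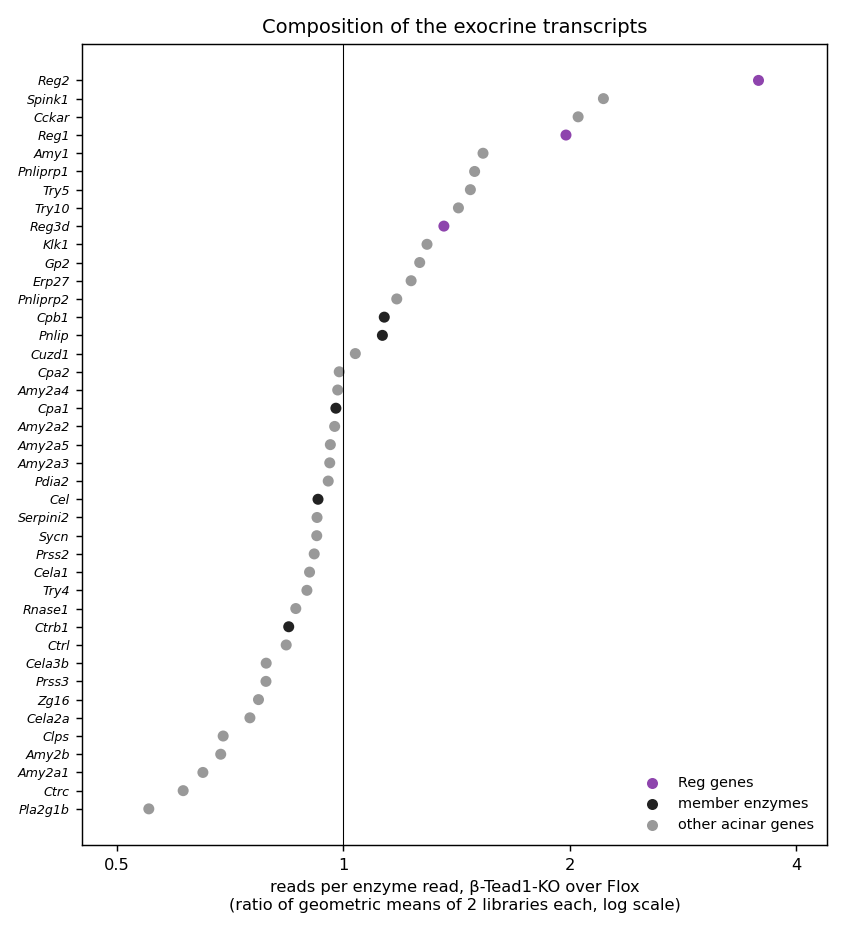
Reads per enzyme read, β-Tead1-KO over Flox, as the ratio of geometric means of 2 libraries each, on a log scale, for 41 acinar and Reg genes. The acinar genes spread from 0.551 to 2.22; Reg1 at 1.98 lies in the upper end of that spread and Reg2 at 3.56 above it.

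Of 5 transcription factors that build and keep the acinar program 4 were tested and edgeR called 0, with 0 at an unadjusted p below 0.05 and a median log2 fold change of -0.31. Rbpjl, the acinar subunit of PTF1, had 0.448 and 1.91 CPM in the β-Tead1-KO libraries, against 0.464 and 3.03 CPM in the Flox libraries, the library pattern of the enzymes. Bhlha15, also called Mist1 and active in secretory cells, had 65.9 and 32.2 CPM in the β-Tead1-KO libraries, against 51.2 and 58.0 CPM in the Flox libraries, and did not follow it. Nr5a2 had 1.30 and 3.15 CPM in β-Tead1-KO and 1.86 and 0.705 CPM in Flox. Gata4 had 0.807 and 0.713 CPM in β-Tead1-KO and 1.16 and 1.97 CPM in Flox, lower without overlap, against 24.2% of all genes tested. Ptf1a, not tested, had 6 and 2 reads in β-Tead1-KO and 1 and 7 in Flox. Of the 5 factors, only Rbpjl rose from library 1 to library 2 in both genotypes.

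Genes for known inducers of the Reg family and their receptors included no called gene: of 16 genes 15 were tested, 0 passed in edgeR, and 6 had an unadjusted p below 0.05, against 16.8% of all genes. The median log2 fold change was 0.31, with 9 genes higher without overlap and 4 lower, against 23.9% and 24.2% of all genes tested. Il6ra, the interleukin-6 receptor, had 454 and 413 CPM in the β-Tead1-KO libraries, against 336 and 246 CPM in the Flox libraries (log2 fold change 0.57 ± 0.22, edgeR adjusted p = 0.269). Jak1, a kinase of cytokine receptors, had 142 and 139 CPM in the β-Tead1-KO libraries, against 202 and 212 CPM in the Flox libraries (-0.56 ± 0.15, edgeR adjusted p = 0.133). Lifr, the leukaemia inhibitory factor receptor, also lay lower without overlap, at 150.4 and 182 CPM in β-Tead1-KO and 226 and 281 CPM in Flox. So did Il6st, the shared signalling receptor, at 113 and 95.4 CPM in β-Tead1-KO and 115 and 145 CPM in Flox, with β-Tead1-KO library 1 only just below Flox library 1. Stat3 overlapped, at 166 and 107 CPM in β-Tead1-KO and 120.2 and 167 CPM in Flox. Il22ra1, the interleukin-22 receptor, and the cytokine Il6 were named after their values were seen. Il22ra1 had 2.69 and 3.57 CPM in the β-Tead1-KO libraries, against 0.0464 and 0.564 CPM in the Flox libraries (3.53 ± 0.77, edgeR adjusted p = 0.0807). Il6 had 22 and 94 reads in the β-Tead1-KO libraries, against 4 and 0 in the Flox libraries (edgeR adjusted p = 0.107).

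Some markers of other cells that an islet preparation can hold were higher in β-Tead1-KO, and others were not. Their part in the Reg values was not tested. The mesenchymal and erythroid sums fell from library 1 to library 2 in both genotypes, whereas Reg1 rose. Mesenchymal markers summed to 310.2 and 283 CPM in the β-Tead1-KO libraries and 235 and 192 CPM in the Flox libraries; all 8 were higher without overlap, against 23.9% of all genes tested, and 2, Col1a1 and Col1a2, were called higher by edgeR, against 1.76%. Macrophage markers summed to 130.2 and 116 CPM in the β-Tead1-KO libraries and 91.1 and 95.1 CPM in the Flox libraries, with 0 of 7 called. C1qa, a complement subunit, and Lyz2 were singled out after their values were seen. Without C1qa the other 6 summed to 45.9 and 37.4 CPM in the β-Tead1-KO libraries and 52.8 and 45.8 CPM in the Flox libraries. Those 6 include Lyz2, lower without overlap at 9.19 and 4.17 CPM in β-Tead1-KO and 21.9 and 16.8 CPM in Flox. Of the 7 macrophage markers, 3 were higher without overlap and 1 lower, against 23.9% and 24.2% of all genes tested. Erythroid markers summed to 317 and 235 CPM in the β-Tead1-KO libraries and 121 and 52.5 CPM in the Flox libraries. All 5 were higher without overlap, against 23.9% of all genes tested, and had an unadjusted edgeR p below 0.05, against 16.8%. Of them 1, Hbb-bt, was called higher by edgeR, against 1.76%. Neutrophil markers were at or near 0, with 3 of 6 without a read in any library. Lymphocyte markers ran opposite to the enzymes over the library numbers, at 38.2 and 11.1 CPM in β-Tead1-KO and 42.9 and 14.9 CPM in Flox, and 0 of 6 tested were called. Ductal markers summed to 312 and 295 CPM in the β-Tead1-KO libraries and 265 and 285 CPM in the Flox libraries, and 0 of 10 tested were called. The sum lacked the step between libraries 1 and 2 seen in the enzymes, but single markers differed. Krt7, which weighs heavily in it, had 133 and 143 CPM in β-Tead1-KO and 136 and 155 CPM in Flox. Tff2, named after its values were seen, showed the step, at 2.42 and 16.7 CPM in β-Tead1-KO and 7.62 and 22.4 CPM in Flox.

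Genes outside the lists whose centred log2 CPM profile over the 4 libraries lay closest to that of the enzymes were sought among 13506 genes. The nearest was 2210010C04Rik, at a root-mean-square distance of 0.225, with 62.3 and 510 CPM in the β-Tead1-KO libraries and 149 and 609 CPM in the Flox libraries. Dmbt1, a secreted scavenger protein of mucosal tissues, was the fifth at 0.264. Between them lay Omg, 4933400F21Rik and Gm15713, of whose reads at most 1.96% were unique, so their values are uncertain. Reg1 stood at 0.545 from the enzyme profile, Reg2 at 1.21 and Reg3b at 2.84. Closest to the mean profile of Reg1, Reg2 and Reg3b were Pcdhb9, with no unique read, and then Elavl2, Fam184b, Col27a1 and Clvs1, at 0.165 to 0.267. That mean describes none of its 3 genes closely, with Reg1 at 0.967, Reg2 at 0.4999 and Reg3b at 1.36 from it; Reg1 was nearer the enzyme profile, and Reg3b entered through its β-Tead1-KO reads alone. Over 4 libraries such a distance describes these libraries only.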

How the data were processed

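Total exon, unique exon, junction and intron reads are whole-number counts per gene and lane, as deposited by the authors; the deposited exon length served as "other" input for levels per kb, per the file headers. Per the submitters' processing notes the reads were placed on mm10; aligner, counter, annotation and strandedness are not given in the sources. The 2 lanes of each library were summed (lane chi-square per degree of freedom 1.07 to 1.20), and the library was the replicate. Genes were filtered with filterByExpr (minimum count 10, minimum total 15), scaled by TMM and tested 2-sided in edgeR 4.0.16 (R 4.3.3) by quasi-likelihood. P-values were adjusted by Benjamini-Hochberg over 15014 genes, with a threshold of 0.05. The biological coefficient of variation was 24.3%. Alternatives used DESeq2 1.42.0 and limma 3.58.1. Log2 fold changes are β-Tead1-KO over Flox; intervals are exact 95% binomial. On simulated counts for 15014 genes, 44 of 50 genes changed by a log2 fold of -2 and 48 of 50 changed by 2 were called, with 17 false calls.

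The members and lists were chosen with earlier results of these data known. All 10 members were named; of each list, every called gene and at most the 5 with the highest mean CPM; and the 5 genes nearest each profile with a mean CPM of at least 1 (prior count 0.5). Spink3 was matched as Spink1 and Mist1 as Bhlha15. Promoter sequences came from RefSeq.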

Additional observations from a re-analysis of the deposited data

How the results depend on the processing

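With 2 libraries per genotype, 1 library sets the direction of the enzymes. Leaving out each library in turn gave 67 to 2360 called genes (90 and 67 without library 1 or 2 of β-Tead1-KO, 2360 and 963 without library 1 or 2 of Flox) and 0 called members; the lone library is then assumed to vary like the others. The median of the acinar list ran from -2.16 to 1.17, the lowest without β-Tead1-KO library 2. Log2 fold changes ran from -2.07 to 1.17 for Cpa1, -1.92 to 1.32 for Cpb1, -2.03 to 0.95 for Ctrb1, -2.04 to 1.45 for Pnlip, -2.21 to 1.15 for Cel, -0.72 to 1.93 for Reg1, 0.46 to 2.61 for Reg2 and 6.62 to 6.77 for Reg3b, which was not tested without β-Tead1-KO library 1. DESeq2 called 1112 genes. The enzyme covariate, added after the data were seen, called 777 genes and 1 member, Reg1, at 0.92, with -0.028 for Cpa1 and -0.082 for Cel. Cpa1 and Cel enter the summed enzyme level used as covariate, so small values for them were built into that fit. The sign of the log2 fold change also turned with limma-voom (Cpa1 -0.41, Cpb1 -0.23, Pnlip -0.26, Cel -0.48) and, for Cpa1, with lane 1 alone (-0.00079). The replicate block on library number called 1150 genes and no member, with -0.36 for Cpa1, -0.18 for Cpb1, -0.20 for Pnlip and -0.42 for Cel; the labels do not tie equal numbers, and deviations of the pairs correlated at 0.38 over only 2 pairs. Adjusted p ran from 0.0668 to 0.934 for Reg2 and from 0.0547 to 0.86 for Reg3b. A filter of at least 1 CPM in every library removed Reg2 and Reg3b, and junction reads or a single lane removed Reg3b. Reg reads per enzyme read kept a fold of 2.06 on unique reads, 2.08 on junction reads, 2.09 per kb and 2.20 against the wider acinar list. Without each library in turn, added after the data were seen, it ran from 1.58 to 2.68 for all Reg reads, 1.58 to 2.48 for Reg1 and 1.61 to 7.89 for Reg2. The causes of these shifts were not tested.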

Other observations

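Outside Reg1, the other 4 members gave 53 and 73 reads in the β-Tead1-KO libraries and 6 and 21 in the Flox libraries. As a share of Reg reads they stood apart in β-Tead1-KO library 1 alone, where Reg1 made up 90.5%, against 97.6% in β-Tead1-KO library 2 and 98.4% and 97.5% in the Flox libraries. Socs3, a feedback target of STAT3 that was named after its values were seen, had 136 and 186 CPM in the β-Tead1-KO libraries, against 113 and 12.3 CPM in the Flox libraries, with a log2 fold change of 1.36 ± 0.89 (SE, n = 2 each; edgeR adjusted p = 0.519). It differed most between the Flox libraries. Osmr, the oncostatin M receptor, also named after its values were seen, had 9.32 and 7.77 CPM in the β-Tead1-KO libraries, against 4.41 and 5.64 CPM in the Flox libraries (0.77 ± 0.25, edgeR adjusted p = 0.207). Extl3, a proposed Reg receptor, had 66.2 and 68.1 CPM in the β-Tead1-KO libraries and 61.6 and 60.4 CPM in the Flox libraries (edgeR adjusted p = 0.703).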
